A study of Mus musculus with 5 samples.

Results

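Hemoglobin genes and other genes of the red cell lineage were followed in RNA of cells sorted from mouse pancreas. The set holds 9 gene symbols chosen by name, which are the adult alpha globin genes Hba-a1 and Hba-a2, the beta globin genes Hbb-b1, Hbb-b2 and Beta-s, the heme synthesis gene Alas2, the red cell anion exchanger gene Slc4a1 and the erythroid transcription factor genes Gata1 and Klf1. All tables together hold 24148 symbols, of which 16992 are in every table. Of the 9, 8 had a row in the tables of the numbered libraries and 6 had one in all 5 tables. Beta-s and Slc4a1 had no row in the table of 1 library, and Gata1 was not analysed here. The symbols were chosen with the difference of the globin genes between the sorted groups already known, so the values of all members are given as a description, with no test.

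Pancreas of C57BL/6 mice, adult and 2 to 4 months of age, was sorted into the 2 populations compared. CD133(positive)CD71(negative) cells gave 2 libraries and CD133(high)CD71(low) cells gave 3, all sorted fresh and with no treatment given in the labels. Prom1 is the gene of CD133, a protein of surface protrusions that marks duct epithelium in the pancreas, and Tfrc is the gene of CD71, the receptor through which cells take up iron bound to transferrin. From here on the groups are called CD71(negative) and CD71(low), although they also differ in CD133. The parts of the 2 markers in any difference cannot be told apart. The third CD71(low) library has no number in its title and is called library 3, and another label field lists all 3 of them as CD71 plus. The labels do not say whether libraries of a group came from different mice or sorting runs, so the spread behind each p-value is that between libraries and may be technical.

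Hemoglobin is built from alpha and beta globin chains that each hold a heme group. Its genes are transcribed at very high rates in erythroblasts, and the long-lived mRNA stays in reticulocytes after the nucleus is lost. Erythroid cells draw iron through a dense coat of CD71, make heme from a pathway that starts with the Alas2 enzyme, and express globin genes under GATA1 and KLF1. CD71 is therefore a marker of red cell precursors as well as of other iron-demanding or dividing cells, which is why globin genes were examined in a CD71 sort.

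The globin rows stand for near-identical genes. Hba-a1 (chromosome 11, 32283511 to 32284465, mm10, plus strand) and Hba-a2 (chromosome 11, 32296489 to 32297298) share a coding sequence of 429 bases that differs at 1 position, C381T from Hba-a1 to Hba-a2, counted from the first base of the start codon. Of all runs of 50 bases in the Hba-a2 transcript, 86.9% also occur in the Hba-a1 transcript, so most short reads cannot be assigned to either gene. The stretch that holds the single coding difference is shown in the GENCODE transcripts, coding bases 351 to 411, with the differing base in capitals.

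Hba-a1: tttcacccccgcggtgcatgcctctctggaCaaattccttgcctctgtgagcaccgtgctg
Hba-a2: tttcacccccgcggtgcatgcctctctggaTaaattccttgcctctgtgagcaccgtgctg

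The beta globin rows are less certain still. Hbb-b1 and Hbb-b2 are the adult beta globin genes of the diffuse haplotype of other mouse strains, whereas C57BL/6 mice carry the single haplotype, with the genes Hbb-bs and Hbb-bt. Beta-s is an older RefSeq name of Hbb-bs (chromosome 7, 103826534 to 103828096, minus strand). The GENCODE annotation of mm10 holds Hbb-bs and Hbb-bt but neither Hbb-b1 nor Hbb-b2. The coding sequences of Hbb-bs and Hbb-bt, 444 bases long, also differ at 1 position, C417T. Levels of single alpha or beta globin rows are therefore uncertain, and sums over rows are given beside them.

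The alpha and beta genes lie on different chromosomes and were both high in CD71(low) libraries 1 and 2, so the promoters of Hba-a1 and Hbb-bs are shown. Each window holds the 250 bases before the RefSeq start site (GRCm38.p6, the build of mm10). Capitals mark 5 motifs, searched on both strands. They are CACCC, the core of KLF1 sites, then CCAAT, the box bound by general factors, then TGATAAG and likewise AGATAAG, which hold the core of GATA1 sites, and lastly ATATAA, a form of the TATA box. No match overlaps another in the windows shown. The Hba-a1 window is chr11:32283422-32283671 (plus strand) and the Hbb-bs window is chr7:103827929-103828178 (minus strand).

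Hba-a1: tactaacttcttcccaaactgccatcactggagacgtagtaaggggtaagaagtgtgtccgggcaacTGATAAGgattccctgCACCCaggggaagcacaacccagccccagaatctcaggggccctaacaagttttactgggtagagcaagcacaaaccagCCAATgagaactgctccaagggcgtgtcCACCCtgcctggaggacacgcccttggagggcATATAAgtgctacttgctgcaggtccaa
Hbb-bs: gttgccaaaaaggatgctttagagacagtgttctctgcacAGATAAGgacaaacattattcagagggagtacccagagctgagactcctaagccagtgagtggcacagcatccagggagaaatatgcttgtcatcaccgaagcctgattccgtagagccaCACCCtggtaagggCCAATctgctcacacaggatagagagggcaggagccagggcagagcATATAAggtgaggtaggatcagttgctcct

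Both windows hold the KLF1 core, the CCAAT box, the TATA form and 1 of the GATA1 motifs, as does that of Hba-a2. The Hbb-bt window lacks both GATA1 motifs, the Klf1 window lacks the TATA form, and the Alas2 window holds the KLF1 core alone. Over 32851 promoter windows of this length CACCC occurred in 52.0%, CCAAT in 33.8%, ATATAA in 9.1%, AGATAAG in 2.7% and TGATAAG in 2.0%. These matches describe the letters and were not tested as binding sites.

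The alpha globin genes were many times as high in CD71(low) libraries 1 and 2 as in either CD71(negative) library, and closer to them in library 3. Hba-a1 measured 4.83 and 4.03 RPKM (reads scaled to transcript length and to library depth, the inferred unit of the deposited values) in the CD71(negative) libraries and 58.5, 57.9 and 3.18 RPKM in the CD71(low) libraries. Library 3 was the lowest of all 5 for Hba-a1, so the groups overlapped. Hba-a2 measured 6.14 and 6.21 RPKM against 48.3, 45.6 and 16.0 RPKM. The groups did not overlap for Hba-a2, and library 3 was again the lowest of its group. Summed, the alpha globin genes came to 10.6 ± 0.52 RPKM (SD, n = 2) and 76.5 ± 49.7 RPKM (SD, n = 3). Within the second group library 3 stood at 19.2 RPKM, against 106.8 and 103.6 RPKM in libraries 1 and 2. Without library 3 the mean of the alpha sum was 9.92-fold higher in CD71(low), and with it 7.22-fold.

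**Figure D1:**
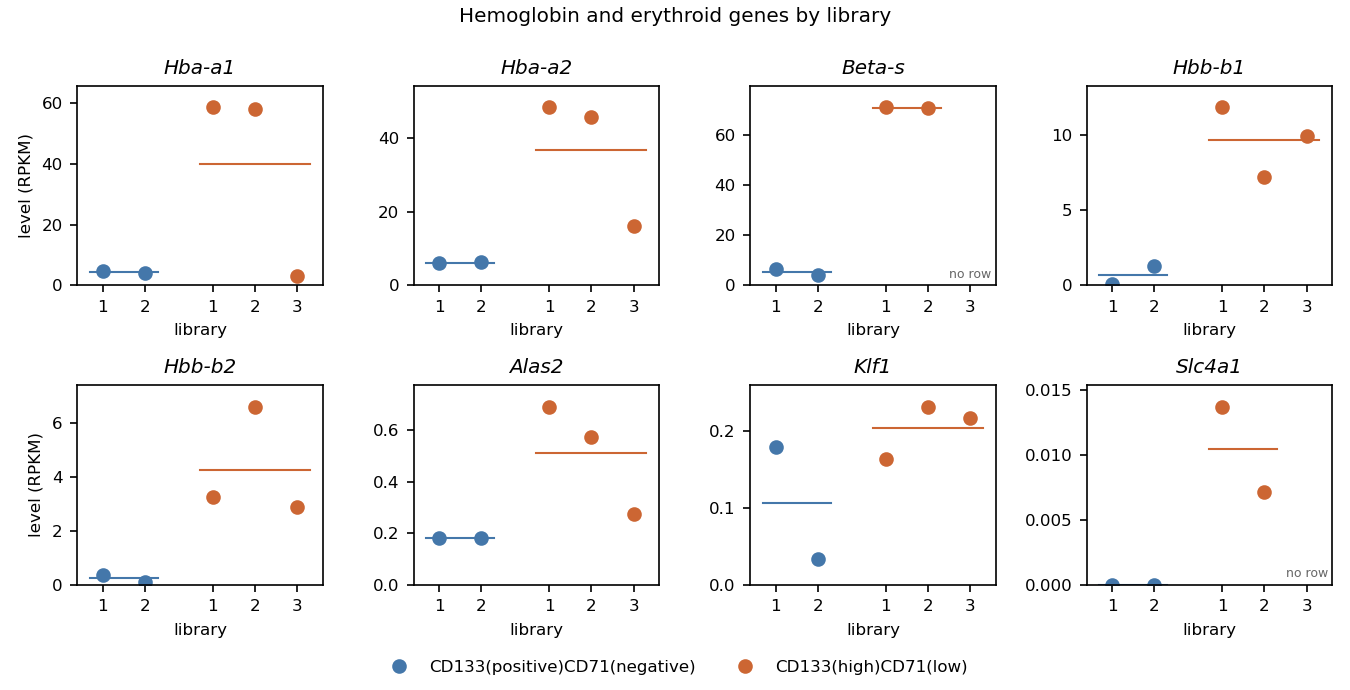
Level of each member in every library, in RPKM on linear axes that differ between panels and start at 0. Points are libraries, lines are group means, and "no row" marks a symbol without a row in the table of library 3. Hba-a1, Hba-a2 and Beta-s sit between 45.6 and 71.1 in CD71(low) libraries 1 and 2 and at or below 6.50 in the CD71(negative) libraries.

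Beta globin RNA was higher in the same libraries. Beta-s measured 6.50 and 4.28 RPKM in the CD71(negative) libraries and 71.1 and 70.7 RPKM in CD71(low) libraries 1 and 2, a 13.2-fold higher mean. This was the highest level of any member, above 97.3% of the symbols common to all tables in both of those libraries. Hbb-b1 measured 0.097 and 1.25 RPKM against 11.8, 7.23 and 9.93 RPKM. Hbb-b2 measured 0.35 and 0.10 RPKM against 3.26, 6.63 and 2.88 RPKM. The groups overlapped for neither row, and library 3 lay between the other two for Hbb-b1 and just below them for Hbb-b2. The sum of Hbb-b1 and Hbb-b2 was 0.45 and 1.35 RPKM against 15.1, 13.9 and 12.8 RPKM. Library 3 was thus close to libraries 1 and 2 for these rows. That sum leaves out Beta-s, the highest beta row of libraries 1 and 2, which library 3 does not list. Whether beta globin RNA as a whole was lower in library 3, as the alpha rows were, therefore cannot be told.

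The split of reads between copies varied between libraries. Hba-a1 over Hba-a2 was 0.79 and 0.65 in the CD71(negative) libraries, 1.21 and 1.27 in CD71(low) libraries 1 and 2, and 0.20 in library 3. Hbb-b1 over Hbb-b2 ranged from 0.27 to 12.3 between the CD71(negative) libraries, where both rows rest on about 1 to 16 reads. The alpha sum over the sum of the 3 beta rows was steadier, at 1.58 and 1.82 against 1.24 and 1.23, and could not be formed in library 3, whose table lists no Beta-s. The table of library 3 holds 22522 symbols against 18618 in each of the other 4. The part of that difference between tables in the alpha and beta globin values of library 3 was not tested.

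Hemoglobin RNA was a minor part of every library. The 4 globin rows found in all tables summed to 11.4 and 11.6 RPKM in the CD71(negative) libraries and to 121.9, 117.4 and 32.0 RPKM in the CD71(low) libraries. The mean was 7.86-fold higher in CD71(low) with library 3 and 10.4-fold without it. Of all RPKM of the common symbols these 4 rows took 0.0022% and 0.0023% against 0.024%, 0.023% and 0.0075%. These figures leave out Beta-s, the highest member. With it, the 5 globin rows summed to 17.9 and 15.9 RPKM against 193.0 and 188.1 RPKM in CD71(low) libraries 1 and 2, an 11.3-fold higher mean. The level of Hba-a2 exceeded that of 63.2% and 61.6% of common symbols in the CD71(negative) libraries and 95.5%, 95.3% and 77.7% in the others. In a bulk library, a higher share of globin-bearing cells and more globin RNA per cell cannot be told apart.

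Alas2, encoding the erythroid form of the first enzyme of heme synthesis, was higher in CD71(low) at low levels. It measured 0.18 and 0.18 RPKM in the CD71(negative) libraries and 0.69, 0.57 and 0.27 RPKM in the CD71(low) libraries. Converted with the transcript length and the depth of each library, these levels rest on about 9 and 7 reads against 45, 36 and 23 reads. The groups did not overlap, but the 95% counting interval (exact Poisson) of library 3, 0.17 to 0.40 RPKM, covers the CD71(negative) values, whereas those of libraries 1 and 2, 0.51 to 0.93 and 0.40 to 0.80 RPKM, do not. The mean was 2.83-fold higher with library 3 and 3.48-fold without it, against 7.86-fold and 10.4-fold for the globin sum. The globin sum was accordingly 62.9 and 63.9 times the Alas2 level in the CD71(negative) libraries and 176.5, 204.7 and 117.1 times in the others.

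Klf1, encoding the zinc finger factor that activates the adult beta globin promoter, did not separate the groups. Its level was 0.18 and 0.033 RPKM in the CD71(negative) libraries and 0.16, 0.23 and 0.22 RPKM in the CD71(low) libraries, or about 7 and 1 against 8, 11 and 14 reads. CD71(low) library 1 lay below CD71(negative) library 1, and the counting intervals of these 2 libraries, 0.071 to 0.32 and 0.073 to 0.37 RPKM, nearly coincide.

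Slc4a1, encoding band 3, the anion exchanger of the red cell membrane, was at the limit of detection. It was listed at 0 in both CD71(negative) libraries and at 0.014 and 0.0071 RPKM in CD71(low) libraries 1 and 2, which equal about 2 reads and 1 read. By the usual one-sided limit, a count of 0 allows up to 3 reads, or 0.026 and 0.033 RPKM in the CD71(negative) libraries, so a difference in Slc4a1 was not detectable at this depth. Intervals and limits cover counting error only, since reads without molecular identifiers are not independent molecules.

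Of the 6 members in all tables, 4 (Hba-a2, Hbb-b1, Hbb-b2 and Alas2) were higher in every CD71(low) library than in both others. The same held for 44.5% of all 16887 common symbols with a mean above 0. Of the 8 members in the numbered tables, 7 were higher in both numbered CD71(low) libraries than in the CD71(negative) ones, Klf1 being the exception, as were 45.9% of the 18282 symbols there. Of the 4 members with a mean of at least 1 RPKM, 3 were higher in every CD71(low) library than in both others, as were 58.2% of all genes with such a mean. Since the globin members were chosen for this contrast, nothing is read from these counts. Those 4 are the globin rows found in all tables, while Alas2 and Klf1 lay below the minimum of 1 RPKM set for tests of other genes.

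The globin rows were also set beside marker lists for the cells of the sort. The 12 leukocyte markers summed to 1347 and 1336 RPKM in CD71(negative) and to 74.6, 63.4 and 39.8 RPKM in CD71(low). The 10 endothelial markers summed to 720.6 and 672.3 RPKM against 202.7, 125.4 and 68.7 RPKM. In limma with Benjamini-Hochberg adjustment over 11769 genes, at a threshold of 0.05, 10 of 11 tested leukocyte markers and 10 of 10 endothelial markers were lower, where 7.22% of all genes tested were. The 10 duct epithelial markers summed to 2824 and 3050 RPKM against 3895, 3947 and 5975 RPKM, and 7 of 10 were higher, where 6.25% of all genes were. The part of these other cells in the globin values was not tested. Within CD71(low) the globin, leukocyte and endothelial sums were all lowest in library 3.

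**Figure D2:**
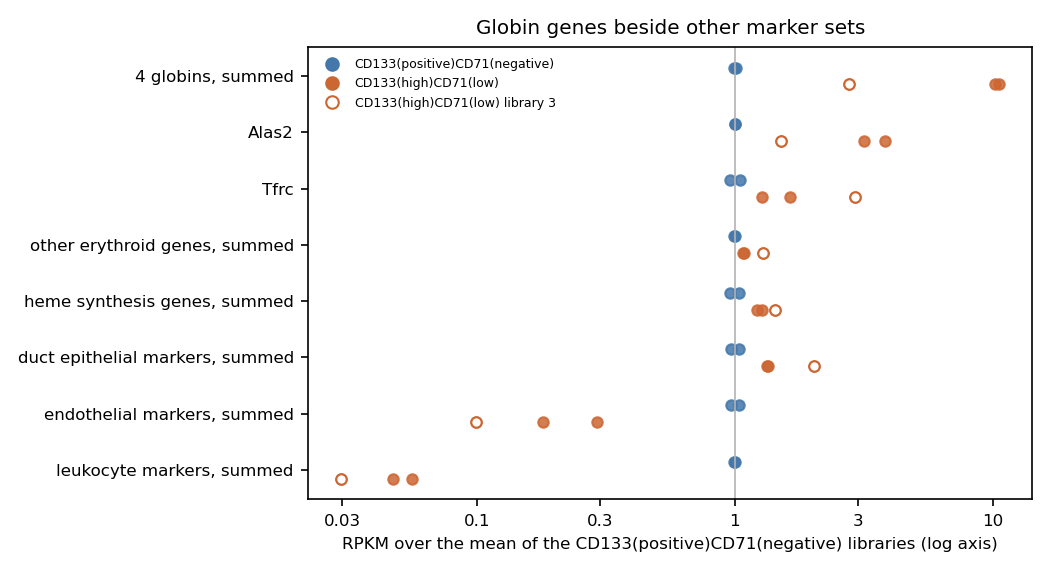
Level in each library divided by the mean of the CD71(negative) libraries, on a log axis, for the summed globin rows, Alas2, Tfrc and 5 summed gene lists. Points are libraries, and the open point is CD71(low) library 3. The globin points of libraries 1 and 2 lie near 10, while the leukocyte and endothelial sums lie below 1 in every CD71(low) library.

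The genes of both sorting markers lay higher in all 3 CD71(low) libraries, without passing the test. Tfrc, the gene of CD71, measured 4.00 and 4.36 RPKM against 5.34, 6.84 and 12.2 RPKM (limma adjusted p = 0.151). Prom1, the gene of CD133, measured 45.8 and 48.8 RPKM against 72.8, 74.7 and 133.3 RPKM (limma adjusted p = 0.0909). Library 3 was the highest for both and the lowest of its group for the globin sum and for Alas2. Without library 3 both genes passed as higher, at limma adjusted p = 0.000208 for Prom1 and 0.0112 for Tfrc. In that fit 40.9% of all genes were higher. Tfrc did not pass there with median-of-ratios scaling added (limma adjusted p = 0.0869).

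Other genes of the erythroid lineage were mostly near 0, and most of those tested did not pass. Of 35 genes on this list, 28 were matched to a symbol, 27 had a row in all tables and 16 of these were under 1 RPKM in every library. Trim58, encoding a ubiquitin ligase of late erythroblasts, was listed at 0 in all 5 libraries. Epb4.2, the gene of the red cell membrane protein 4.2, was at 0 in both CD71(negative) libraries and rested on about 2, 2 and 3 reads in the CD71(low) libraries. Rhag, encoding an ammonium channel of the red cell membrane, measured 0.15 and 0.087 RPKM against 0.067, 0.17 and 0.12 RPKM, with the groups overlapping. The theta globin genes Hbq1a and Hbq1b were listed at 0 in the 4 numbered libraries and at 0.0011 and 0.041 RPKM in library 3.

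**Figure D3:**
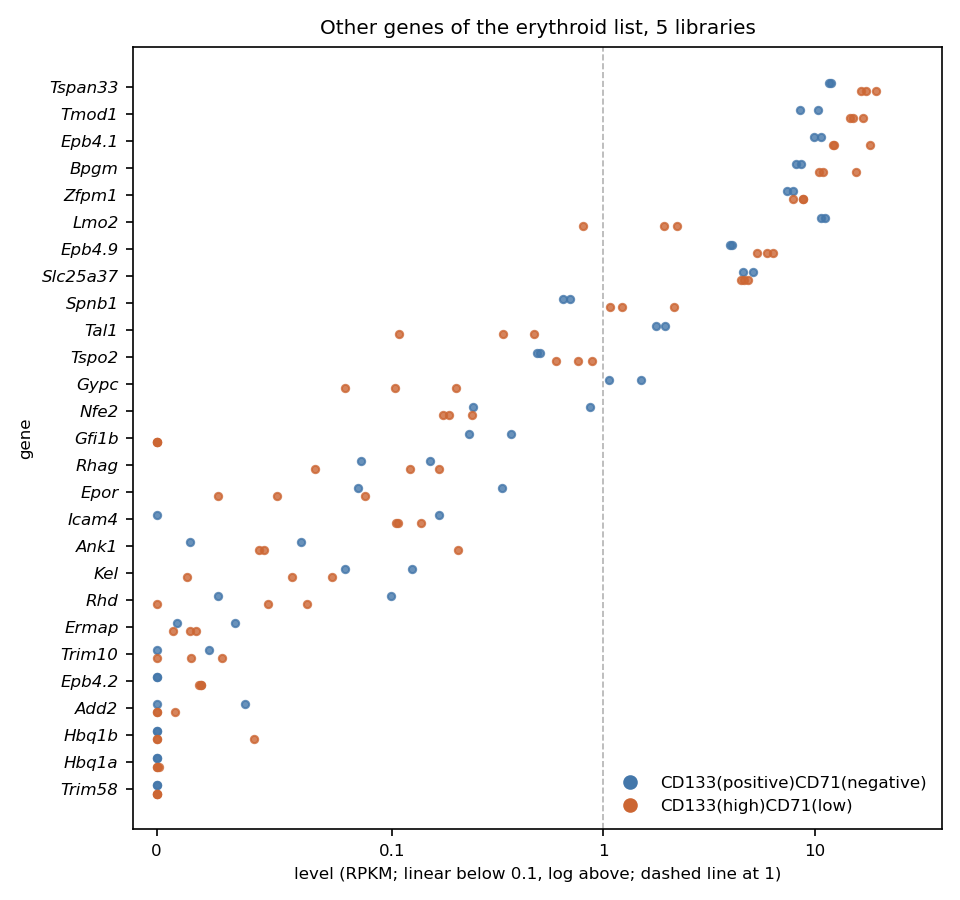
Level of the 27 other erythroid genes with a row in all tables, in RPKM on an axis that is linear below 0.1 and logarithmic above, with a dashed line at 1. Points are libraries, with CD71(negative) drawn above CD71(low) in each row. The lower rows, from Nfe2 to Trim58, lie below 1 in every library, and Lmo2, Tal1, Gypc and Gfi1b lie lower in CD71(low).

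Of the 9 genes tested on this list, 2 rose, 1 fell and 6 did not pass, where 6.25% of all genes rose and 7.22% fell. Their median log2 difference was 0.46, against 0.31 over all genes tested. Without library 3, 5 of the 9 were higher and 2 lower, where 40.9% and 12.2% of all genes were. Tmod1, encoding an actin-capping protein of the membrane skeleton, rose from 8.54 and 10.3 RPKM to 15.2, 14.7 and 16.9 RPKM (log2 difference 0.67, SE 0.14, limma adjusted p = 0.0335). Tspan33, a tetraspanin gene, rose from 11.7 and 11.9 RPKM to 16.6, 17.5 and 19.4 RPKM (log2 difference 0.56, SE 0.12, limma adjusted p = 0.0395). Lmo2, encoding an adaptor of the erythroid TAL1 and GATA1 complex that is also found in endothelium, fell from 11.2 and 10.8 RPKM to 2.22, 1.94 and 0.81 RPKM (log2 difference -2.22, SE 0.27, limma adjusted p = 0.00722). All 3 are expressed outside the red cell lineage. Endothelial marker genes fell in the same libraries, and the part of other cells in these 3 differences was not tested. Neither rise passed under median-of-ratios scaling of all 5 libraries (limma adjusted p = 0.0644 for Tmod1 and 0.138 for Tspan33), while both passed with that scaling in the 4 numbered libraries (0.00502 and 0.0138). Neither passed without CD71(low) library 1 or 2 or either CD71(negative) library, although the log2 difference stayed at 0.55 to 0.80 for Tmod1 (adjusted p of 0.104 to 0.339) and at 0.54 to 0.60 for Tspan33 (0.109 to 0.342). A fit without a CD71(negative) library leaves 1 in that group, which is assumed to vary like the CD71(low) libraries. In those fits Lmo2 kept log2 differences of -2.19 and -2.24 but did not pass, at adjusted p = 0.128 and 0.12.

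Among the genes with a mean under the minimum for testing, Tal1, Gfi1b and Gypc had lower levels in every CD71(low) library. They were picked after their values were seen, and Zfpm1, encoding another partner of GATA1, was tested and lay higher in CD71(low), at 7.43 and 7.88 RPKM against 8.79, 7.94 and 8.82 RPKM (limma adjusted p = 0.393). Tal1, encoding a partner of GATA1 that is shared with endothelium, measured 1.77 and 1.95 RPKM against 0.47, 0.33 and 0.11 RPKM. Gfi1b, encoding a repressor of erythroid and megakaryocyte cells, measured 0.37 and 0.23 RPKM and was listed at 0 in all 3 CD71(low) libraries, with about 17 and 8 reads in the former. Gypc, encoding the membrane glycophorin C, measured 1.51 and 1.06 RPKM against 0.20, 0.10 and 0.080 RPKM. Over the 27 genes, 9 were higher and 6 lower in every CD71(low) library than in both others, where the shares over all common symbols were 44.5% and 18.0%.

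Apart from that of Alas2, the enzymes of the heme synthesis pathway are used by all cells. The heme synthesis list also holds genes that encode none of these enzymes, such as Slc25a38, Abcb10 and Flvcr1. Of its 13 genes tested 1 rose and 0 fell in limma, where 6.25% and 7.22% of all genes did. Their median log2 difference was 0.20, below the median of all genes. An unadjusted limma p under 0.05 was reached by 5 of the 13, and by 4315 of all 11769 genes tested. Without library 3, 6 of the 13 were higher, where 40.9% of all genes were. Alad, encoding the second enzyme of the pathway, rose from 14.8 and 14.6 RPKM to 23.7, 23.4 and 22.9 RPKM (log2 difference 0.63, SE 0.11, limma adjusted p = 0.0184). It did not pass under median-of-ratios scaling of all 5 libraries (adjusted p = 0.189) but did with that scaling in the 4 numbered ones (0.00238). Without library 1 or 2 of either group it kept a log2 difference of 0.62 to 0.65 and did not pass. Its limma adjusted p was 0.096 and 0.094 without CD71(low) library 1 or 2. In these fits 89 and 40 of all genes were higher, against 735 with all 5 libraries. Alas1, the housekeeping counterpart of Alas2, measured 12.4 and 10.7 RPKM against 11.3, 11.7 and 17.5 RPKM (limma adjusted p = 0.502). Fech, encoding the enzyme that inserts iron into heme, measured 11.2 and 12.5 RPKM against 15.1, 15.8 and 17.5 RPKM (limma adjusted p = 0.0838). The genes Alas1 and Fech were named after their values were seen.

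Genes for the clearance of hemoglobin and heme showed 1 fall and 0 rises among 9 tested in limma, where 7.22% and 6.25% of all genes did. An unadjusted limma p under 0.05 was reached by 4 of the 9, and by 4315 of all 11769 genes tested. Hmox1, the inducible heme oxygenase gene, fell from 5.40 and 5.66 RPKM to 1.74, 1.36 and 0.91 RPKM (log2 difference -1.50, SE 0.18, limma adjusted p = 0.0072). With 1 CD71(negative) library left its log2 difference stayed at -1.53 and -1.47, with adjusted p of 0.127 and 0.125. Without CD71(low) library 3, 4 of the 9 were higher and 2 lower, where 40.9% and 12.2% of all genes were. Cd163, the macrophage receptor for hemoglobin, was untested for its low mean and measured 0.70 and 0.76 RPKM against 0.10, 0.088 and 0.097 RPKM. Leukocyte markers fell between the same groups, and the part of leukocytes in the Hmox1 and Cd163 values was not tested. Of 9 genes tied to reticulocyte maturation 0 passed in limma. Unadjusted, 4 of these 9 had a limma p under 0.05, as did 4315 of the 11769 genes tested. The highest means on that list were those of Bsg, encoding the surface protein basigin, at 241 and 255 RPKM against 369, 362 and 514 RPKM, and the catalase gene Cat, at 74.8 and 80.8 RPKM against 106.4, 106.8 and 162.5 RPKM. Without library 3, 5 of the 9 passed as higher, Bsg at adjusted p = 0.000342 and Cat at 0.00163 among them, where 40.9% of all genes did.

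**Figure D4:**
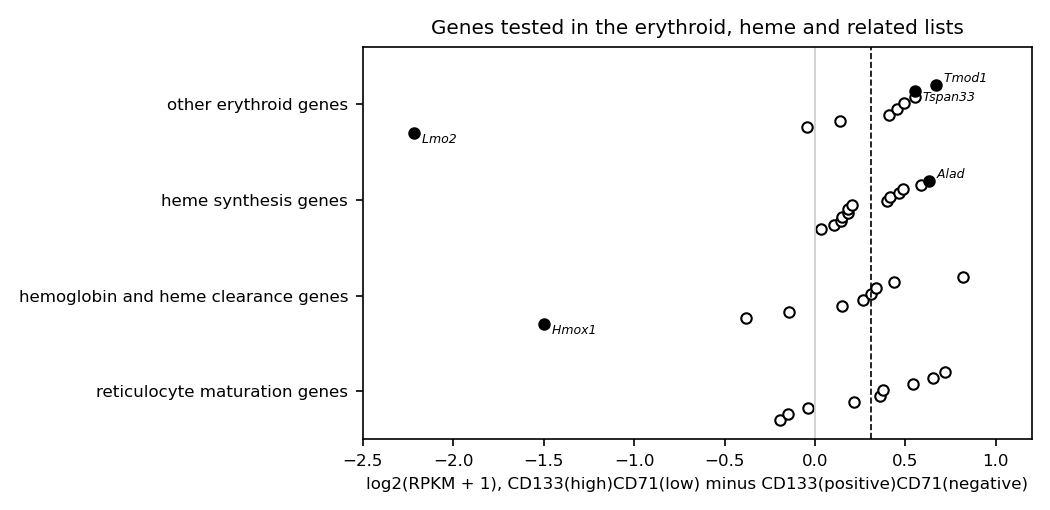
Log2 difference of each gene tested in 4 lists, given as CD71(low) less CD71(negative) after a log2(RPKM + 1) transform. Filled points passed limma at an adjusted p under 0.05 and are named, open points did not, and the dashed line is the median of all genes tested, 0.31. The named genes are Lmo2, Hmox1, Tmod1, Tspan33 and Alad.

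Few markers of the megakaryocyte and mast cell lineages, which share factors with erythroid cells, reached the minimum mean for testing. Of 12 megakaryocyte and platelet markers 2 were tested. Pf4, encoding platelet factor 4, fell from 2.20 and 2.31 RPKM to 1.17, 0.66 and 0.73 RPKM (log2 difference -0.82, SE 0.16, limma adjusted p = 0.0265), and kept log2 differences of -0.85, -0.80 and -0.75 without CD71(negative) library 1, CD71(negative) library 2 or CD71(low) library 2, where it did not pass (adjusted p of 0.257, 0.219 and 0.1). Itga2b, the integrin gene of platelets, measured 0.30 and 0.51 RPKM against 0.65, 0.53 and 3.92 RPKM (limma adjusted p = 0.323), with library 3 far above the rest. Among 10 mast cell and basophil markers the sole gene tested was Kit, a receptor gene that is also found in other cells, at 12.1 and 12.5 RPKM against 16.0, 16.4 and 25.8 RPKM (limma adjusted p = 0.132). The mast cell chymase gene Cma1, named after its values were seen, measured 0.98 and 0.84 RPKM and was listed at 0 in the 3 CD71(low) libraries.

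The tested genes whose levels ran most like the globin sum over the 5 libraries, by Pearson r on the log2(RPKM + 1) scale, were Sod3 (r = 0.997), Nudt16 (0.996), Cox8a (0.996), Ecsit (0.995) and Tysnd1 (0.995). None is on an erythroid or heme list used here, but few genes of those lists could be ranked. All members and genes with a mean under 1 RPKM were left out of the ranking. It held 9 genes each of the erythroid and clearance lists and 13 of heme synthesis, so nothing is read from their absence. Sod3, encoding the extracellular superoxide dismutase, measured 10.8 and 12.1 RPKM against 33.6, 31.9 and 17.9 RPKM. With 5 libraries in groups and library 3 apart, 16 genes reached an r above 0.99, so the likeness is a description of these libraries.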

How the data were processed

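Total RNA of freshly sorted cells was sequenced with Illumina library protocols, per the labels' protocols. For each library the authors deposited a table of gene symbols and values. Partek and the mm10 build are named, per the submitters' processing notes. Aligner and gene models are not given in the sources used. The unit of the deposited values is not stated and was inferred as RPKM, since low values times GENCODE transcript length fell on whole multiples of 1 step per library. Depth from these steps was 25.3 and 19.7 M reads for CD133(positive)CD71(negative) and 31.7, 30.6 and 41.9 M for CD133(high)CD71(low). Of the low values used, 51.0% to 67.7% lay within 0.05 reads of a whole number (10.0% by chance), too few for a count test. Read numbers are level times length times depth, with the Hbb-bs length for all beta rows. A row of alignments in the table of library 3 names no gene and was left out.

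Replicates were compared before averaging: variance between libraries was 4.90 and 3.96 times that of read sampling for the numbered pairs and 44.0 and 37.3 times for library 3 against libraries 1 and 2. The 16992 symbols common to all tables were used. Values were tested as log2(RPKM + 1) (pseudocount 1), which understates changes of low genes, in genes with a mean of at least 1, with limma 3.58.1 in R 4.3.3 (mean-variance trend, group as sole term, Benjamini-Hochberg adjustment). The depth finder was tested on simulated data. The fit was too, but with the spread of the numbered libraries alone, which leaves out the larger spread of library 3. Python 3.11.15, numpy 2.4.6, pandas 2.3.3, scipy 1.17.1 and matplotlib 3.10.9 were used.

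Members and lists were chosen with earlier results of these data known. From each list up to 2 risen and 2 fallen genes with the smallest adjusted p were named, or the 2 with the highest mean if none passed, with Prom1, Tfrc and the 5 genes most like the globin sum (no predicted genes or small RNAs). Any further gene was picked with its values in view. The alternatives tried were a pseudocount of 0.1, median-of-ratios scaling, no filter or a minimum mean of 5, each library left out, the replicate number as a block, and the 4 numbered libraries with that scaling or with all their own symbols.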

Additional observations from a re-analysis of the deposited data

How the results depend on the processing

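The globin sum kept its direction in every setting run, with a log2 difference of 2.65, and 2.32 to 3.27 with 1 library left out. Calls across genes depended on library 3 and on scaling. Of all genes, 735 were higher and 850 lower (46.4% of calls higher, median log2 difference 0.31). Median-of-ratios scaling moved the median to 0.06 and left 312 higher (22.3% of calls), 2 lower and 0 higher erythroid genes, and 0 higher heme synthesis genes. With 1 library left out 0 to 4785 genes were higher and 154 to 1425 lower. The counts then ran from 0 to 5 higher and 0 to 2 lower erythroid genes, 0 to 6 higher heme synthesis genes, 0 to 4 higher and 0 to 2 lower clearance genes, 0 to 5 higher reticulocyte genes, 0 to 1 lower megakaryocyte markers and 0 to 1 higher mast cell markers. The highest counts of higher genes were those without library 3.

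With the 4 numbered libraries and all their symbols, 4780 genes were higher and 1431 lower, with 5 higher and 2 lower erythroid, 5 higher heme synthesis, 4 higher and 2 lower clearance, 5 higher reticulocyte and 1 higher mast cell genes. With these libraries and median-of-ratios scaling, 1782 were higher and 1931 lower, with 3 higher and 2 lower erythroid, 2 higher heme synthesis, 2 higher and 3 lower clearance, and 3 higher and 1 lower reticulocyte genes. Without a filter 1729 genes were lower, with 4 lower erythroid, 3 lower clearance, 3 lower megakaryocyte, 5 lower mast cell and 1 higher reticulocyte genes. With a mean of at least 5, 315 genes were lower, and 0 clearance genes, since Hmox1 lies below that mean, as do all megakaryocyte markers, which then give no count. The replicate block gave 5325 higher and 1492 lower genes, with 6 higher erythroid, 6 higher heme synthesis, 4 higher and 2 lower clearance, 5 higher and 1 lower reticulocyte and 1 higher mast cell genes. Library 3 has no partner in that fit. The differences between libraries 1 and 2 of the groups did not run together (Pearson r across genes of -0.024). This cannot settle whether the numbers pair the libraries, since paired libraries that differ by technical spread alone could give the same. With a pseudocount of 0.1 the log2 differences of low members grew, to 1.05 for Alas2 and 0.65 for Klf1. The causes were not tested. Klf1 rests on about 1 to 14 reads a library and Slc4a1 on 0 to 2 in the 4 numbered ones, which limits what can be seen of them. Of the 27 other erythroid genes with a row in all tables, 16 lay under 1 RPKM in every library.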
